A study of Homo sapiens with 14 samples.

Results

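The nuclear genes of the tricarboxylic acid (TCA) cycle and of the respiratory chain were followed across 14 expression arrays of a gastric cancer line undergoing epithelial-mesenchymal transition (EMT), with and without knockdown of ANGPTL4, a secreted angiopoietin-like protein. The 56 genes were taken from a list of cycle enzymes and subunits of complexes I to V and matched by current or former symbol. A probe set of a single symbol was listed for 53 of them. They were 11 of 12 TCA cycle genes, 17 of 17 complex I genes, 3 of 4 complex II genes, 4 of 5 complex III genes, 11 of 11 complex IV genes and 7 of 7 complex V genes. SDHB, FH and UQCRFS1 were not analysed here. All 53 passed the filter on dim genes, as did 11050 of 18417 genes in all. The rule that named the 56 genes used no measured value, but the list was chosen with earlier results of these data known.

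The cells were the line labelled MKN28, which the study's text names MKN74, an established gastric carcinoma line. Parental cells were left untreated for 2 days, kept at 1% oxygen for 1 or 2 days, or given transforming growth factor β (TGFβ, 10 ng/ml) for 1 or 2 days. A derivative carried Snai1ER, the EMT transcription factor Snai1 joined to an estrogen receptor domain that 4-hydroxytamoxifen (4-OHT) switches on. Snai1ER cells were left without 4-OHT for 4 days or given 4-OHT (20 ng/ml) for 2 or 4 days. Each treated state was also profiled after ANGPTL4 knockdown. The study's text describes siRNA against ANGPTL4 in the parental line. For Snai1ER cells it describes a derivative line with a doxycycline-inducible short hairpin (shANGPTL4). The sample labels give the knockdown but not which of these was used. If a hairpin line was compared with cells lacking the hairpin, line and knockdown cannot be told apart there. The untreated states had no knockdown partner. Every condition was 1 array, and nothing in the labels names separate cultures. Values are deposited log2 signals. A difference of 1 is a doubling, and values are compared only within a gene, since probe sets differ in brightness.

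The TCA cycle strips electrons from acetyl-CoA and hands them to NADH and to succinate dehydrogenase, which is both a cycle enzyme and complex II. Complex I takes electrons from NADH. Complexes III and IV pass them on to oxygen while pumping protons, and complex V, the ATP synthase, uses the proton gradient to make ATP. Most subunits are encoded in the nucleus, and a set of core subunits of complexes I, III, IV and V is encoded in mitochondrial DNA. Those mitochondrial genes were not analysed here. Nuclear respiratory factor 1 (NRF1), ETS factors and Sp1 are known regulators of many of the nuclear genes.

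The genes were bright, with a median level at the 92.1 percentile of all genes and the dimmest at the 50.6 percentile. Epithelial marker genes were above the filter in 7 of 7 cases, with array medians between 10.3 and 11.7. None of 4 endothelial, 1 of 4 immune (CD68) and 1 of 4 fibroblast markers (COL1A1) were above it. SNAI1 read between 8.80 and 9.85 on the Snai1ER arrays and between 4.76 and 6.19 on the parental arrays. ANGPTL4 read between 4.16 and 5.66 on every array, below the filter level of 5.90, so the arrays do not show its knockdown. The arrays with TGFβ and no knockdown had medians of 5.23 and 5.19 over all probe sets, where the other 12 lay between 5.997 and 6.16. Results that touch them are given on the deposited scale and after quantile normalization, which gives all arrays 1 distribution. The array of hypoxia day 1 with knockdown also stood apart, with the largest spread from the mean of the other arrays (SD 0.69, other arrays 0.27 to 0.56).

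The region just upstream of a gene's start was taken from RefSeq (GRCh38.p14) for 47 of the 56 genes. Shown are 250 bases upstream of COX5B, COX8A, ATP5PO and NDUFS8, which were among the genes lower with knockdown in 4-OHT, and of SDHA, which was not. Capitals mark matches on either strand to an NRF1 motif that leaves a single base open, and to the ETS (CCGGAAG) and Sp1 (GGGCGG) motifs. ETS and Sp1 letters abut in COX5B and run together in the capitals.
COX5B (chr2:97645812-97646061, plus strand): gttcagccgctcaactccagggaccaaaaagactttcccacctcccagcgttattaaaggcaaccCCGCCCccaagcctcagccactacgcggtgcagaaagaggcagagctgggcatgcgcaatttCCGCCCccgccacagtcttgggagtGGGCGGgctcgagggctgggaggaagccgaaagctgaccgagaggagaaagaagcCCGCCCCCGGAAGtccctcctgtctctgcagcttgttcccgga
COX8A (chr11:63974370-63974619, plus strand): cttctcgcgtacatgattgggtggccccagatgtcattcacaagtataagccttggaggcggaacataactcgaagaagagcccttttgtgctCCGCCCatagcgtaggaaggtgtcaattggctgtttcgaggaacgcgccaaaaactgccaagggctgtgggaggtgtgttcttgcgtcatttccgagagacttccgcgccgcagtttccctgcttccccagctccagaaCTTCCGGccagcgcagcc
ATP5PO (chr21:33915805-33916054, minus strand): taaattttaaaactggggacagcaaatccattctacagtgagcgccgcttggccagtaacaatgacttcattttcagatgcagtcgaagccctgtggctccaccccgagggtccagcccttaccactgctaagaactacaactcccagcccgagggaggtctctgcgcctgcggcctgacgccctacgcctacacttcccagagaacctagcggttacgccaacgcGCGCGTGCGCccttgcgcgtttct
NDUFS8 (chr11:68030431-68030680, plus strand): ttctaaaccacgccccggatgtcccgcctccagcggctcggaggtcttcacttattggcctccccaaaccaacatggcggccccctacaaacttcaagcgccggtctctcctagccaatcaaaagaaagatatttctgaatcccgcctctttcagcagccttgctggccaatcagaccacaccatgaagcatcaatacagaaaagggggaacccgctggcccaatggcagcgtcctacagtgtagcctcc
SDHA (chr5:218070-218319, plus strand): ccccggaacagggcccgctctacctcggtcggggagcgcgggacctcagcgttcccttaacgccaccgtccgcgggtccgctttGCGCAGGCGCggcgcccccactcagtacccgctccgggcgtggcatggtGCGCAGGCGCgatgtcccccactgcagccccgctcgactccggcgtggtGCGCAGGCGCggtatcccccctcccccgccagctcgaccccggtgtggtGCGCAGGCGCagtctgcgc
COX5B held 4 Sp1 matches and 1 ETS match, COX8A 1 of each, ATP5PO 1 NRF1 match 24 bases before the start, and NDUFS8 none. SDHA held 4 NRF1 matches, which began 166, 117, 68 and 19 bases before the start. Over the full RefSeq window, which runs 50 bases past the start, the NRF1 letters were in 11 of 47 genes (23.4%, against 6.98% of the windows of 27305 genes). The ETS letters were in 14 of 47 (29.8% against 12.2%) and the Sp1 letters in 29 of 47 (61.7% against 48.3%). A YY1 motif (AAGATGGC) was in 9 of 47 (19.1% against 3.52%), in each case at or after the start and in none wholly before it. The hypoxia response core (ACGTG) was in 7 of 47 (14.9% against 24.9%). It overlaps the E-box CACGTG, which was in ATP5MC1 and ATP5PB. Of the 9 genes with a window that were lower with knockdown in 4-OHT, 2 held NRF1, 2 ETS and 6 Sp1 letters. Of the other 38, 9, 12 and 23 did. These 38 include SDHB, FH and UQCRFS1, whose signals were not analysed, so it is not known whether they were lower. UQCRFS1 held NRF1 and Sp1 letters, SDHB ETS and Sp1 letters and FH Sp1 letters. A match is a string of letters and not a measured site.

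In hypoxia most of these genes were slightly lower than untreated, and 1 passed 1.5-fold at both times. ATP5MC1, which encodes the c subunit of the ATP synthase rotor, differed from the untreated array by -0.65 and -0.77 on the log2 scale at days 1 and 2 (1.57-fold and 1.71-fold lower). No gene was 1.5-fold higher at both times, where 2.94% of all genes were higher and 1.71% lower. The median difference was -0.13 at day 1 and -0.25 at day 2, against -0.03 and -0.01 over all genes. Of the 53 genes, 34 were below 0 at both times, against 40.3% of all genes, and 40 of 53 on the quantile scale, against 42.2%. The quantile scale left ATP5MC1 as the only gene past 1.5-fold, where 3.02% of all genes were higher and 1.95% lower. The 2 hypoxia arrays share 1 untreated array, each condition is 1 array, and no test was run within this treatment. In such bulk RNA, fewer cells of a type and less RNA per cell cannot be told apart.

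The lower medians ran through every group at the second day. They were -0.26 for the TCA cycle, -0.10 for complex II, -0.29 for complex I, -0.17 for complex III, -0.25 for complex IV and -0.13 for complex V. The largest differences after ATP5MC1 were in IDH3A, the catalytic subunit of NAD-linked isocitrate dehydrogenase (-0.41 and -0.52), and NDUFA2, an accessory subunit of complex I (-0.23 and -0.69). At the other end, SDHA, the flavoprotein of complex II, differed by 0.16 and 0.33. COX7B, a small complex IV subunit, was at 0.62 and -0.15 and UQCRB of complex III at 0.34 and -0.05, so both changed sign between the days. Beside the chain, PDK1, a kinase that shuts down pyruvate dehydrogenase and a known hypoxia target, was 1.44 and 1.31 higher, and the opposing phosphatase PDP1 0.94 and 0.94 higher. Of 13 measured genes of pyruvate entry and other cycle enzymes, 10 passed the filter, and these 2 were higher. Of the 41 assembly factors above the filter only COA7 was lower, at -0.65 and -0.80, and MRPL20 was lower among 73 mitochondrial ribosomal protein genes, at -0.61 and -1.08. None of 17 regulators of mitochondrial gene expression passed 1.5-fold in either direction.

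In parental cells ATP5MC1 read 10.14 untreated, 9.49 and 9.37 in hypoxia and 10.15 and 10.10 with TGFβ, against 10.93 and 8.90 in hypoxia and 10.03 and 9.91 with TGFβ after the knockdown. In Snai1ER cells it read 10.83 untreated and 10.86 and 10.21 with 4-OHT, against 10.66 and 9.83 with 4-OHT and the knockdown. The hypoxia arrays without knockdown were below every array outside hypoxia, and the hypoxia day 1 array with knockdown was the highest of all. For IDH3A the parental values were 10.09 untreated, 9.67 and 9.57 in hypoxia and 10.22 and 10.20 with TGFβ, against 9.94 and 9.16 in hypoxia and 10.22 and 10.10 with TGFβ after the knockdown. Its Snai1ER values were 10.45 untreated and 10.19 and 9.91 with 4-OHT, against 10.66 and 10.67 with 4-OHT and the knockdown. The 3 lowest values of IDH3A were in hypoxia, and the 2 highest were the 4-OHT arrays with knockdown. In parental cells SDHA read 9.37 untreated, 9.52 and 9.70 in hypoxia and 9.02 and 8.96 with TGFβ, against 8.30 and 9.69 in hypoxia and 9.55 and 9.64 with TGFβ after the knockdown. In Snai1ER cells SDHA read 9.83 untreated and 9.99 and 9.67 with 4-OHT, against 10.17 and 9.25 with 4-OHT and the knockdown. The hypoxia day 1 knockdown array was its lowest and the Snai1ER 4-OHT day 2 knockdown array its highest. SDHA has near-identical pseudogene copies, so its values are uncertain.

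**Figure D1:**
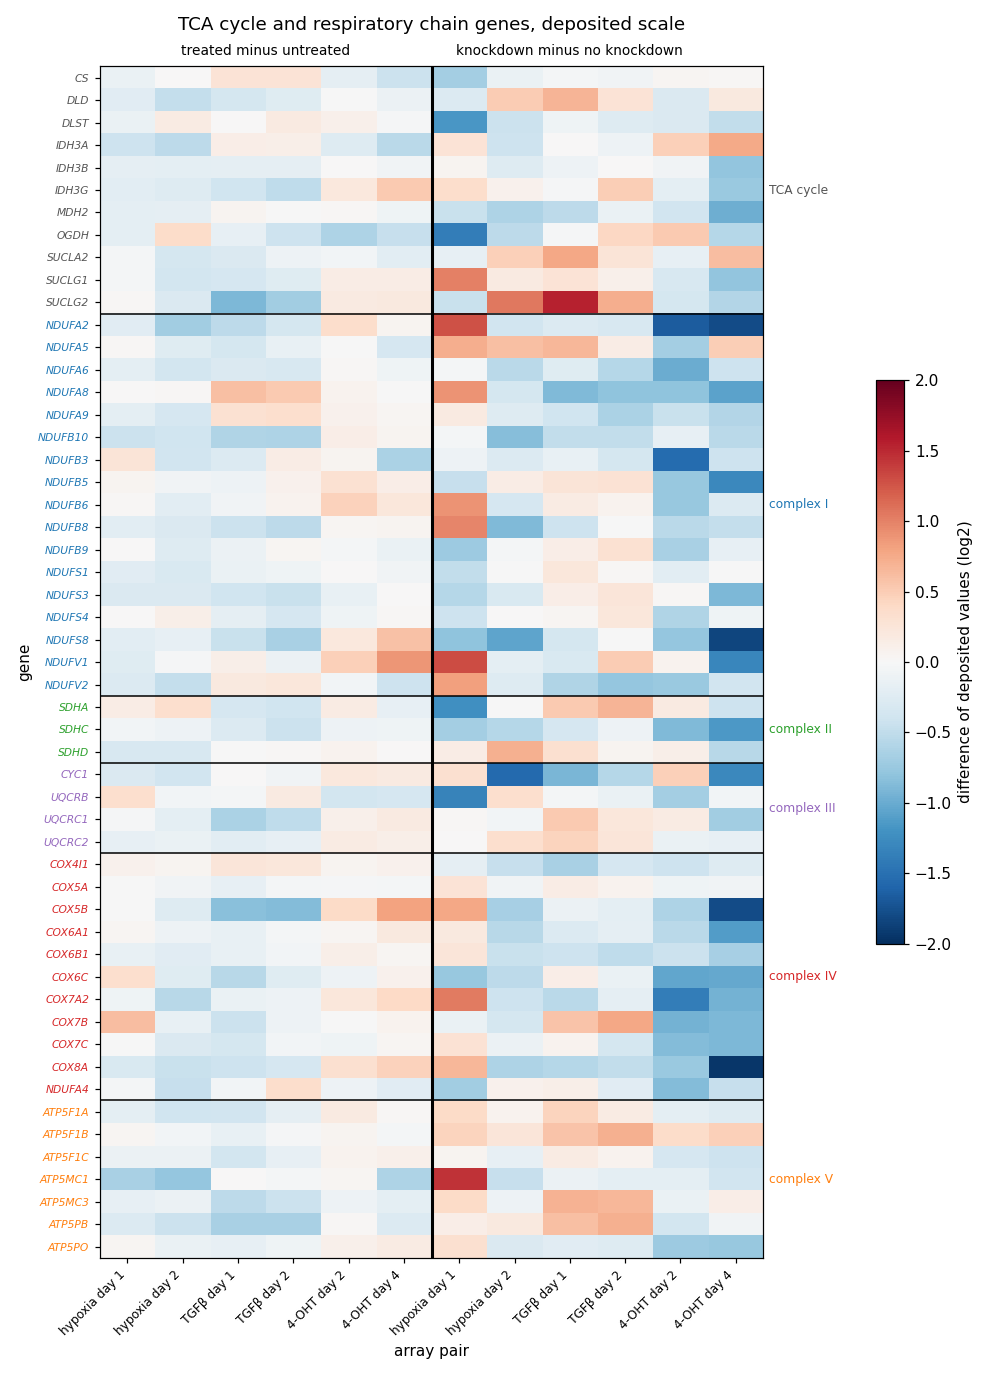
Log2 differences of deposited values for the 53 genes (rows, grouped and coloured by complex). The left 6 columns give treated minus untreated arrays and the right 6 knockdown minus no knockdown arrays of the same treatment and day, each from 1 array against 1. The left columns are paler, the 4-OHT knockdown columns are mostly blue for complexes I and IV, and the hypoxia day 1 knockdown column holds both strong reds (ATP5MC1 at 1.44) and strong blues.

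With TGFβ the call depended on the scale. On the deposited scale 4 of 53 genes were 1.5-fold lower at both days, COX5B of complex IV (-0.83 and -0.87), SUCLG2, the GTP-specific subunit of succinyl-CoA synthetase (-0.89 and -0.70), ATP5PB of the ATP synthase peripheral stalk (-0.66 and -0.64) and NDUFB10 of complex I (-0.61 and -0.61). By that rule 32.3% of all genes were lower and 0.452% higher. The median of all genes was -0.45 and -0.47, and that of the 53 genes -0.18 and -0.10. After quantile normalization none of the 53 was lower (3.27% of all genes) and 1 was higher (2.47% of all genes). This was NDUFA8, a complex I accessory subunit, at 0.88 and 0.71 (1.83-fold and 1.63-fold). The medians were then 0.09 and 0.09, against 0.02 and 0.00 over all genes.

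The 4 genes that were lower on the deposited scale stayed below the untreated value on the quantile scale by smaller steps, -0.42 and -0.46 for COX5B, -0.44 and -0.27 for SUCLG2, -0.44 and -0.53 for ATP5PB and -0.22 and -0.24 for NDUFB10. On either scale NDUFA8 had the highest difference, and on the deposited scale NDUFA9 (0.30 and 0.34) and citrate synthase, CS (0.28 and 0.27), came next. On the quantile scale UQCRB (0.57 and 0.77) and DLST (0.49 and 0.64) took those places. The hypoxia and TGFβ comparisons use the same untreated array.

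In parental cells SUCLG2 read 8.31 untreated, 8.34 and 8.02 in hypoxia and 7.42 and 7.61 with TGFβ, against 7.90 and 9.07 in hypoxia and 8.95 and 8.34 with TGFβ after the knockdown. Its Snai1ER values were 8.37 untreated and 8.56 and 8.56 with 4-OHT, against 8.21 and 7.97 with 4-OHT and the knockdown. Its 2 lowest arrays were those with TGFβ and no knockdown. In parental cells ATP5PB read 11.74 untreated, 11.46 and 11.31 in hypoxia and 11.09 and 11.10 with TGFβ, against 11.59 and 11.50 in hypoxia and 11.69 and 11.82 with TGFβ after the knockdown. In Snai1ER cells it read 11.87 untreated and 11.88 and 11.60 with 4-OHT, against 11.52 and 11.52 with 4-OHT and the knockdown. The TGFβ arrays without knockdown were again the lowest. In parental cells NDUFB10 read 8.46 untreated, 8.03 and 8.06 in hypoxia and 7.85 and 7.84 with TGFβ, against 7.99 and 7.21 in hypoxia and 7.36 and 7.35 with TGFβ after the knockdown. In Snai1ER cells NDUFB10 read 8.39 untreated and 8.52 and 8.44 with 4-OHT, against 8.37 and 7.90 with 4-OHT and the knockdown. In this gene the TGFβ and hypoxia day 2 arrays with knockdown were lower still. In parental cells NDUFA9 read 10.19 untreated, 10.01 and 9.86 in hypoxia and 10.50 and 10.53 with TGFβ, against 10.19 and 9.61 in hypoxia and 10.10 and 9.90 with TGFβ after the knockdown. Its Snai1ER values were 10.42 untreated and 10.51 and 10.47 with 4-OHT, against 10.06 and 9.88 with 4-OHT and the knockdown. In parental cells CS, which makes citrate, read 9.17 untreated, 9.04 and 9.17 in hypoxia and 9.45 and 9.44 with TGFβ, against 8.36 and 9.05 in hypoxia and 9.41 and 9.37 with TGFβ after the knockdown. In Snai1ER cells it read 9.28 untreated and 9.10 and 8.85 with 4-OHT, against 9.15 and 8.86 with 4-OHT and the knockdown. The highest 2 values of CS were the TGFβ arrays without knockdown, while in NDUFA9 the 4-OHT day 2 array lay between them.

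With Snai1 switched on by 4-OHT none of the 53 genes was past 1.5-fold at both times, in either direction, where 2.30% of all genes were higher and 1.19% lower. The same was found on the quantile scale, with 2.33% and 1.21% of all genes. The medians were 0.05 at day 2 and 0.02 at day 4, against 0.03 and -0.01 over all genes. The highest differences were in NDUFV1, the complex I subunit that binds NADH (0.48 and 0.88), COX5B (0.39 and 0.80) and NDUFS8, an iron-sulfur subunit of complex I (0.21 and 0.58). The lowest were in OGDH, the first enzyme of the 2-oxoglutarate dehydrogenase complex (-0.62 and -0.46), IDH3A (-0.26 and -0.53) and UQCRB (-0.37 and -0.33). Outside the list, the NADP-linked isocitrate dehydrogenases IDH1 (0.81 and 1.13) and IDH2 (1.36 and 1.52) were higher, as was PDK2 (0.94 and 0.78), a further pyruvate dehydrogenase kinase. Between untreated Snai1ER and untreated parental cells 2 of 53 genes were 1.5-fold higher and 0 lower, where 4.74% of all genes were higher and 8.11% lower. After quantile normalization the counts were again 2 and 0 (COX7B and ATP5MC1 higher), against 5.09% and 8.13%.

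In Snai1ER cells NDUFV1 read 9.08 untreated and 9.56 and 9.96 with 4-OHT, against 9.63 and 8.66 with 4-OHT and the knockdown. In parental cells NDUFV1 read 9.19 untreated, 8.96 and 9.17 in hypoxia and 9.30 and 9.08 with TGFβ, against 10.27 and 8.98 in hypoxia and 8.99 and 9.58 with TGFβ after the knockdown. Its knockdown arrays were close to their partner at 4-OHT day 2 and below it at day 4, and hypoxia day 1 with knockdown was the highest of all. In Snai1ER cells OGDH read 8.70 untreated and 8.09 and 8.24 with 4-OHT, against 8.61 and 7.66 with 4-OHT and the knockdown. Its parental values were 8.59 untreated, 8.40 and 8.95 in hypoxia and 8.43 and 8.18 with TGFβ, against 7.01 and 8.44 in hypoxia and 8.41 and 8.60 with TGFβ after the knockdown. The hypoxia day 1 knockdown array was the lowest, followed by 4-OHT day 4 with knockdown. In Snai1ER cells UQCRB read 6.79 untreated and 6.41 and 6.46 with 4-OHT, against 5.74 and 6.40 with 4-OHT and the knockdown. In parental cells UQCRB read 6.49 untreated, 6.83 and 6.44 in hypoxia and 6.45 and 6.67 with TGFβ, against 5.49 and 6.77 in hypoxia and 6.41 and 6.53 with TGFβ after the knockdown. Its lowest array was again hypoxia day 1 with knockdown.

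The largest median shift of these genes on the deposited scale was in Snai1ER cells with 4-OHT when ANGPTL4 was knocked down. Of 53 genes, 12 were 1.5-fold lower at both times and 0 higher, where 6.77% of all genes were lower and 2.38% higher. They were 6 of 11 complex IV genes (COX5B, COX6C, COX7A2, COX7B, COX7C, COX8A), 4 of 17 complex I genes (NDUFA2, NDUFA8, NDUFB5, NDUFS8), 1 of 3 complex II genes (SDHC) and 1 of 7 complex V genes (ATP5PO), with 0 of 11 in the TCA cycle and 0 of 4 in complex III. The median was -0.39 at day 2 and -0.54 at day 4, against -0.02 and -0.04 over all genes. Of the 53, 39 were below 0 at both times (32.3% of all genes) and 3 above, IDH3A, CS and ATP5F1B, with CS at -0.06 at day 4 on the quantile scale. On the quantile scale 11 of 53 were lower, COX5B no longer among them, and 0 higher, where 7.48% of all genes were lower and 2.19% higher. No test was run within this treatment, where each condition is 1 array. A hairpin line, if used here, may also differ from its control line. The 4-OHT arrays without knockdown enter both the 4-OHT and the knockdown difference.

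Among the groups as listed, complex IV stood lowest, with medians of -0.75 and -0.90 and all 11 genes below 0 at both times. This order depends on which subunits were listed. The complex III subunits outside the list that passed the filter, given below, were all lower by the 1.5-fold rule. Complex I had medians of -0.68 and -0.48, with 14 of 17 genes below 0 at both times. The TCA cycle was at -0.20 and -0.57, complex V at -0.20 and -0.26, complex III at 0.02 and -0.43 and complex II at 0.12 and -0.55. In complex IV, COX8A differed by -0.75 and -1.95, COX5B by -0.62 and -1.79, COX7A2 by -1.39 and -0.94 and COX6C by -1.03 and -1.02. COX5A was closest to 0, at -0.09 and -0.07. In complex I, NDUFA2 differed by -1.66 and -1.78 (3.16-fold and 3.45-fold lower), the largest difference of the list by the mean of both times, and NDUFS8 by -0.77 and -1.84. NDUFB3 was at -1.53 and -0.42, lower at day 2 only by the 1.5-fold rule.

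**Figure D2:**
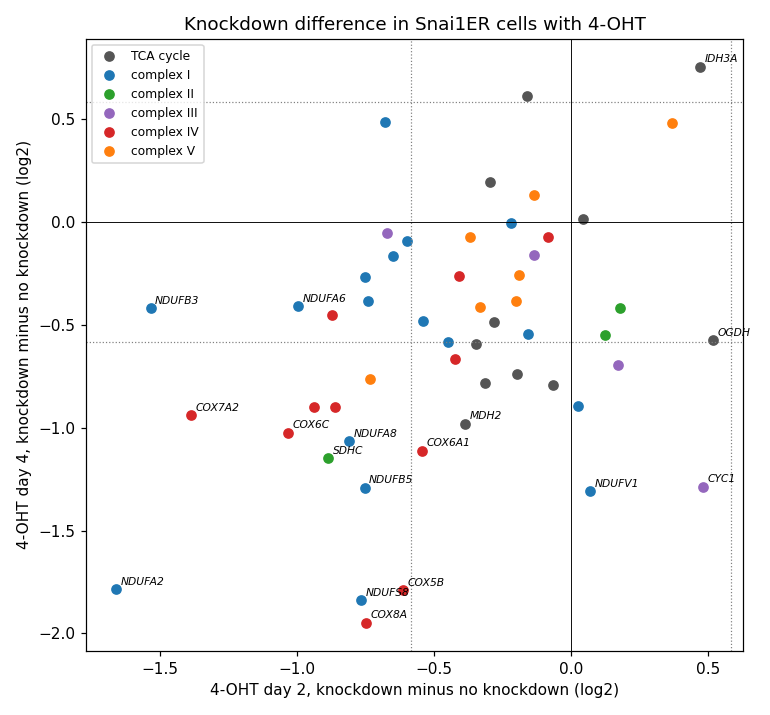
Knockdown minus no knockdown in Snai1ER cells with 4-OHT, deposited log2 values, day 2 on the horizontal and day 4 on the vertical axis. Each point is 1 gene coloured by complex, and dotted lines mark 1.5-fold. The 12 genes in the lower left field are lower at both times, and only IDH3A, CS and ATP5F1B lie above 0 on both axes.

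In Snai1ER cells NDUFA2 read 9.35 untreated and 9.70 and 9.41 with 4-OHT, against 8.04 and 7.62 with 4-OHT and the knockdown. In parental cells it read 9.11 untreated, 8.88 and 8.42 in hypoxia and 8.58 and 8.77 with TGFβ, against 10.16 and 8.03 in hypoxia and 8.32 and 8.44 with TGFβ after the knockdown. Both Snai1ER knockdown arrays were below every other array except that of hypoxia day 2 with knockdown at 8.03, while hypoxia day 1 with knockdown was the highest. In Snai1ER cells COX8A read 10.62 untreated and 10.94 and 11.08 with 4-OHT, against 10.19 and 9.13 with 4-OHT and the knockdown. In parental cells COX8A read 10.65 untreated, 10.35 and 10.20 in hypoxia and 10.24 and 10.32 with TGFβ, against 11.01 and 9.58 in hypoxia and 9.67 and 9.83 with TGFβ after the knockdown. Here 5 of 6 pairs were lower with knockdown and the hypoxia day 1 pair was higher. In Snai1ER cells COX5B read 8.24 untreated and 8.63 and 9.04 with 4-OHT, against 8.01 and 7.25 with 4-OHT and the knockdown. Its parental values were 8.50 untreated, 8.50 and 8.25 in hypoxia and 7.67 and 7.63 with TGFβ, against 9.27 and 7.58 in hypoxia and 7.55 and 7.44 with TGFβ after the knockdown. The 4-OHT day 4 array with knockdown was the lowest of 14 and its partner without knockdown the second highest. In Snai1ER cells COX7A2 read 10.29 untreated and 10.51 and 10.68 with 4-OHT, against 9.12 and 9.74 with 4-OHT and the knockdown. In parental cells COX7A2 read 10.40 untreated, 10.32 and 9.85 in hypoxia and 10.28 and 10.30 with TGFβ, against 11.36 and 9.44 in hypoxia and 9.74 and 10.13 with TGFβ after the knockdown. The 4-OHT day 2 knockdown array was its lowest and the hypoxia day 1 knockdown array its highest.

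In Snai1ER cells COX6C read 11.49 untreated and 11.39 and 11.56 with 4-OHT, against 10.35 and 10.54 with 4-OHT and the knockdown. In parental cells COX6C read 11.32 untreated, 11.65 and 11.07 in hypoxia and 10.76 and 11.08 with TGFβ, against 10.88 and 10.54 in hypoxia and 10.90 and 10.95 with TGFβ after the knockdown. Its 3 lowest arrays were both 4-OHT arrays with knockdown and hypoxia day 2 with knockdown. In Snai1ER cells COX7B read 10.003 untreated and 9.99 and 10.07 with 4-OHT, against 9.05 and 9.17 with 4-OHT and the knockdown. Its parental values were 9.37 untreated, 9.99 and 9.22 in hypoxia and 8.93 and 9.26 with TGFβ, against 9.85 and 8.88 in hypoxia and 9.51 and 10.04 with TGFβ after the knockdown. With TGFβ this gene was higher after the knockdown on both scales, by 0.25 and 0.47 on the quantile scale. In Snai1ER cells COX7C read 11.03 untreated and 10.95 and 11.07 with 4-OHT, against 10.09 and 10.17 with 4-OHT and the knockdown. In parental cells COX7C read 10.79 untreated, 10.79 and 10.50 in hypoxia and 10.45 and 10.73 with TGFβ, against 11.08 and 10.38 in hypoxia and 10.52 and 10.39 with TGFβ after the knockdown. The 2 Snai1ER knockdown arrays were its lowest of 14.

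In Snai1ER cells SDHC, one of the membrane anchors of complex II, read 9.18 untreated and 9.08 and 9.09 with 4-OHT, against 8.19 and 7.94 with 4-OHT and the knockdown. In parental cells SDHC read 8.95 untreated, 8.90 and 8.85 in hypoxia and 8.67 and 8.51 with TGFβ, against 8.21 and 8.29 in hypoxia and 8.34 and 8.41 with TGFβ after the knockdown. All 6 knockdown arrays lay below all 8 others. In Snai1ER cells NDUFA8 read 9.56 untreated and 9.63 and 9.55 with 4-OHT, against 8.82 and 8.49 with 4-OHT and the knockdown. In parental cells it read 9.21 untreated, 9.22 and 9.23 in hypoxia and 9.82 and 9.73 with TGFβ, against 10.11 and 8.87 in hypoxia and 8.94 and 8.92 with TGFβ after the knockdown. The knockdown arrays were lower in every pair except hypoxia day 1. In Snai1ER cells NDUFB5 read 10.71 untreated and 11.02 and 10.84 with 4-OHT, against 10.26 and 9.55 with 4-OHT and the knockdown. In parental cells NDUFB5 read 10.58 untreated, 10.64 and 10.50 in hypoxia and 10.48 and 10.67 with TGFβ, against 10.19 and 10.64 in hypoxia and 10.75 and 10.96 with TGFβ after the knockdown. Its parental pairs went both ways. In Snai1ER cells ATP5PO, the subunit that joins the peripheral stalk to the catalytic head, read 11.44 untreated and 11.55 and 11.61 with 4-OHT, against 10.81 and 10.85 with 4-OHT and the knockdown. Its parental values were 11.65 untreated, 11.69 and 11.52 in hypoxia and 11.48 and 11.56 with TGFβ, against 12.02 and 11.23 in hypoxia and 11.25 and 11.30 with TGFβ after the knockdown. The 2 Snai1ER knockdown arrays were again the lowest.

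The same knockdown arrays were low for other subunits outside the list. All 4 further complex III subunits above the filter were 1.5-fold lower at both 4-OHT times, UQCR11 at -1.08 and -2.65, UQCRH at -0.91 and -2.19, UQCR10 at -1.13 and -1.53 and UQCRQ at -0.94 and -1.19. By this rule 6.77% of all genes were lower. Of 17 further complex I subunits, 8 were lower, among them NDUFA11 (-0.60 and -2.47), NDUFA13 (-0.70 and -2.10) and NDUFA3 (-1.32 and -2.09). Of 10 further ATP synthase genes, 5 were lower, with ATP5ME at -1.35 and -2.50 and ATP5IF1, the inhibitor of the enzyme, at -1.20 and -0.74. Mitochondrial ribosomal protein genes were lower in 12 of 73 cases and assembly factors in 6 of 41, among them UQCC2 (-1.37 and -2.14) and COX14 (-1.04 and -2.17). PDHB of pyruvate dehydrogenase was at -0.95 and -1.11. Regulators of mitochondrial gene expression were lower in 0 of 17 cases, with medians of 0.16 and -0.11. In none of these lists was a gene 1.5-fold higher at both times.

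The 12 genes of the list that were lower spanned 1924 to 48826 bases of the genome, with a median of 10130.5 (GRCh38.p14). The other 41 spanned 2438 to 294153 bases, with a median of 13750.

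In TGFβ the knockdown result again turned with the scale. On the deposited scale 3 genes were higher, SUCLG2 (1.53 and 0.73), ATP5MC3 (0.69 and 0.66) and ATP5PB (0.60 and 0.72), where 27.6% of all genes were higher. NDUFA8 (-0.88 and -0.80) and NDUFV2 (-0.61 and -0.77) were lower, where 0.751% of all genes were. On the quantile scale 0 were higher and 10 of 53 lower, where 1.36% of all genes were higher and 4.48% lower. The 10 were NDUFA2, NDUFA8, NDUFA9, NDUFB10 and NDUFV2 of complex I, UQCRB and CYC1 of complex III and COX4I1, COX6B1 and COX8A of complex IV. NDUFA8 differed there by -1.19 and -1.07, CYC1, cytochrome c1, by -1.21 and -0.85 and COX8A by -0.92 and -0.78. NDUFA8 and NDUFV2 were lower on both scales, and NDUFA8, NDUFA2 and COX8A were also among the lower genes in 4-OHT on the quantile scale. The median was -0.37 and -0.41, against -0.06 and -0.05 over all genes.

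In parental cells NDUFV2, an iron-sulfur subunit of complex I, read 9.84 untreated, 9.57 and 9.36 in hypoxia and 10.04 and 10.07 with TGFβ, against 10.39 and 9.11 in hypoxia and 9.43 and 9.30 with TGFβ after the knockdown. In Snai1ER cells NDUFV2 read 10.40 untreated and 10.35 and 9.99 with 4-OHT, against 9.61 and 9.61 with 4-OHT and the knockdown. In parental cells ATP5MC3, another gene for the c subunit, read 7.72 untreated, 7.55 and 7.60 in hypoxia and 7.19 and 7.29 with TGFβ, against 7.93 and 7.50 in hypoxia and 7.88 and 7.95 with TGFβ after the knockdown. Its Snai1ER values were 7.88 untreated and 7.78 and 7.68 with 4-OHT, against 7.65 and 7.81 with 4-OHT and the knockdown. Its 2 lowest arrays were those with TGFβ and no knockdown. In parental cells CYC1 read 9.19 untreated, 8.90 and 8.81 in hypoxia and 9.19 and 9.11 with TGFβ, against 9.23 and 7.24 in hypoxia and 8.29 and 8.55 with TGFβ after the knockdown. In Snai1ER cells CYC1 read 9.42 untreated and 9.64 and 9.61 with 4-OHT, against 10.11 and 8.32 with 4-OHT and the knockdown. In parental cells COX4I1, the largest nuclear subunit of complex IV, read 8.72 untreated, 8.80 and 8.77 in hypoxia and 8.96 and 8.94 with TGFβ, against 8.62 and 8.32 in hypoxia and 8.31 and 8.61 with TGFβ after the knockdown. In Snai1ER cells it read 8.81 untreated and 8.87 and 8.90 with 4-OHT, against 8.46 and 8.64 with 4-OHT and the knockdown. On the deposited scale its 6 knockdown arrays all lay below the 6 treated arrays without knockdown. In parental cells COX6B1 read 11.48 untreated, 11.33 and 11.25 in hypoxia and 11.32 and 11.42 with TGFβ, against 11.57 and 10.81 in hypoxia and 10.91 and 10.90 with TGFβ after the knockdown. In Snai1ER cells COX6B1 read 11.51 untreated and 11.62 and 11.54 with 4-OHT, against 11.20 and 10.88 with 4-OHT and the knockdown. Apart from the hypoxia day 1 array, its knockdown arrays were the lowest of 14.

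In hypoxia the 2 days of the knockdown went apart. NDUFA5 of complex I was higher at both days (0.72 and 0.61) and NDUFS8 lower (-0.80 and -1.05), where 0.434% of all genes were higher and 4.02% lower. The quantile scale gave the same 2 genes, where 0.67% were higher and 3.76% lower. The medians of complex IV were 0.24 and -0.45 and those of complex V 0.38 and -0.10. ATP5MC1 (1.44 and -0.46), NDUFA2 (1.28 and -0.39), COX7A2 (1.04 and -0.41) and COX8A (0.66 and -0.62) changed sign. The day 1 value rests on the array that stood apart from all others, and the part of that array in the result was not tested. Across the 53 genes the day 1 differences had a Pearson r of -0.11 with day 2 on the quantile scale and between -0.18 and -0.14 with the other 4 pairs, where all 11050 genes gave 0.12 and between 0.02 and 0.07. The hypoxia day 2 and TGFβ day 1 differences had an r of 0.77, the TGFβ days 0.77 and the 4-OHT days 0.33, against 0.46, 0.63 and 0.43 over all genes. No pair shares an array with another, and the 53 genes are not independent.

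**Figure D3:**
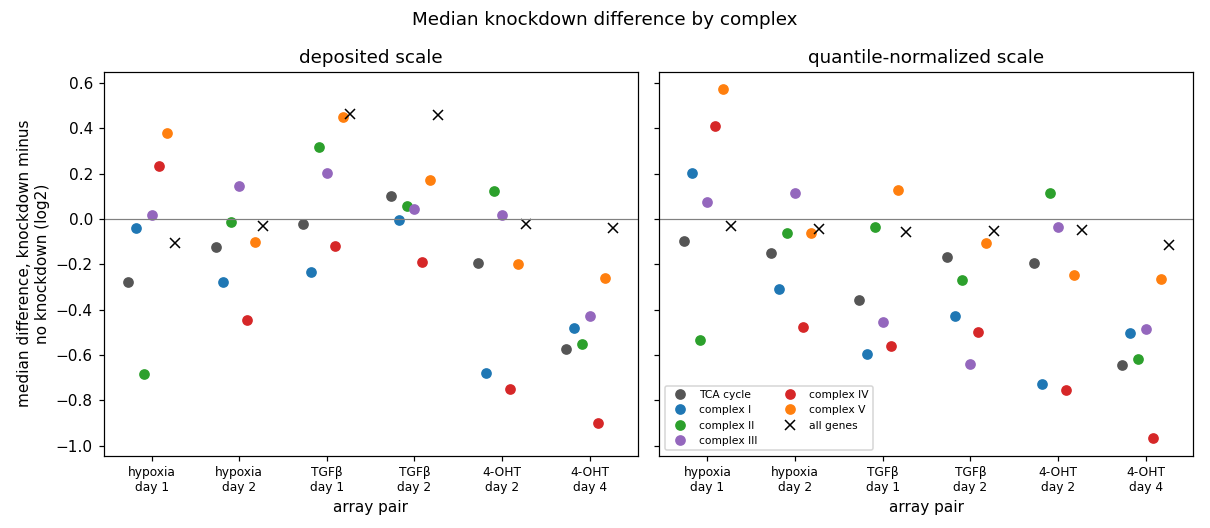
Median log2 difference, knockdown minus no knockdown, in each of the 6 array pairs for the genes of each complex (dots) and for all 11050 genes above the filter (crosses), on the deposited (left) and quantile-normalized (right) scale. On the deposited scale complex IV has the lowest median of the 6 groups in 4 of 6 pairs and 0.24 in hypoxia day 1, and the crosses of the TGFβ pairs drop from 0.46 to -0.06 and -0.05 with the quantile scale.

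Set against the untreated array of the same line, the knockdown states differed in how many genes were past 1.5-fold at both times, on the deposited scale. In hypoxia with knockdown 4 genes were lower (SDHC, MDH2, NDUFS3, NDUFS8) and 0 higher, where 6.29% of all genes were lower and 1.52% higher. With TGFβ and knockdown 6 were lower (NDUFA2, NDUFB10, NDUFS8, CYC1, COX5B, COX8A) and 0 higher, where 3.08% of all genes were lower and 1.26% higher. With 4-OHT and knockdown 10 were lower (SDHC, NDUFA2, NDUFA4, NDUFA8, NDUFB3, NDUFV2, COX6C, COX7B, COX7C, ATP5PO) and 0 higher, where 4.86% of all genes were lower and 1.87% higher. No array in an untreated state had the knockdown, so these differences hold both the treatment and the knockdown.

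Over all 6 pairs the knockdown was tested with limma, with the pair as a block, and p-values were adjusted over 11050 genes. The fit treats the 6 pairs as independent. The labels do not say whether the days of a treatment came from separate cultures or knockdowns, so the p-values rest on that assumption. With deposited values 0 of 53 genes passed an adjusted p of 0.05, with 12 at an unadjusted p under 0.05 (16.7% of all genes), where 0.0814% of all genes passed as lower and 0.0452% as higher, 14 in all. The smallest adjusted p among the 53 was 0.168, for NDUFS8. The median difference was -0.22, against 0.12 over all genes, and 37 of 53 were below 0. Without both TGFβ pairs the deposited medians were -0.325 and, over all genes, -0.05. On the quantile scale 1 of 53 passed, SDHC at -0.74 (SE 0.13, adjusted p = 0.0444), lower in 6 of 6 pairs. SDHC values are means of 2 probe sets. On that scale 19 of 53 were at an unadjusted p under 0.05 (19% of all genes), and 97 genes in all passed (0.787% lower, 0.0905% higher). The median was -0.32, against -0.06 over all genes, and 42 of 53 were below 0. With array medians centred instead, 16 of 53 passed, all lower, where 10.6% of all genes passed as lower and 0.181% as higher. With the hypoxia day 1 pair left out, a choice made after seeing the data, 14 of 53 passed on the quantile scale, all lower, where 3.86% of all genes passed. They were SDHC, MDH2, NDUFA6, NDUFA8, NDUFB8, NDUFB10, NDUFA9, NDUFV2, NDUFS8, COX6A1, COX6B1, COX7A2, COX8A and ATP5PO. Without the TGFβ pairs, with or without hypoxia day 1, none passed on either scale.

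The lowest fitted differences were in NDUFS8, at -0.80 (SE 0.23, adjusted p = 0.168) on the deposited and -0.89 (SE 0.20, adjusted p = 0.071) on the quantile scale, lower in 6 of 6 pairs on both. COX8A was at -0.62 (SE 0.26, adjusted p = 0.275), lower in 5 of 6 pairs, and SDHC at -0.62 (SE 0.19, adjusted p = 0.192), lower in 6 of 6, on the deposited scale. The mitochondrial malate dehydrogenase MDH2 was at -0.52 (SE 0.18, adjusted p = 0.228) and -0.63 (SE 0.14, adjusted p = 0.0716), lower in 6 of 6 pairs on both scales. ATP5F1B, the catalytic β subunit of ATP synthase, was the highest, at 0.47 (SE 0.17, adjusted p = 0.234) and 0.35 (SE 0.12, adjusted p = 0.165). It was higher in 6 of 6 pairs on both scales, as were 6.71% of all genes on the deposited and 3.87% on the quantile scale. NDUFA5 at 0.32 (SE 0.21, adjusted p = 0.433) and SUCLG2 at 0.32 (SE 0.28, adjusted p = 0.546) followed on the deposited scale. In all, 8 of 53 genes were lower in 6 of 6 pairs on the deposited scale, where 2.73% of all genes were, and 9 of 53 on the quantile scale, where 8.30% were. By complex the median on the deposited scale was -0.38 for complex IV, -0.30 for complex I, -0.14 for complex III, -0.05 for complex II, -0.01 for the TCA cycle and 0.10 for complex V.

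**Figure D4:**
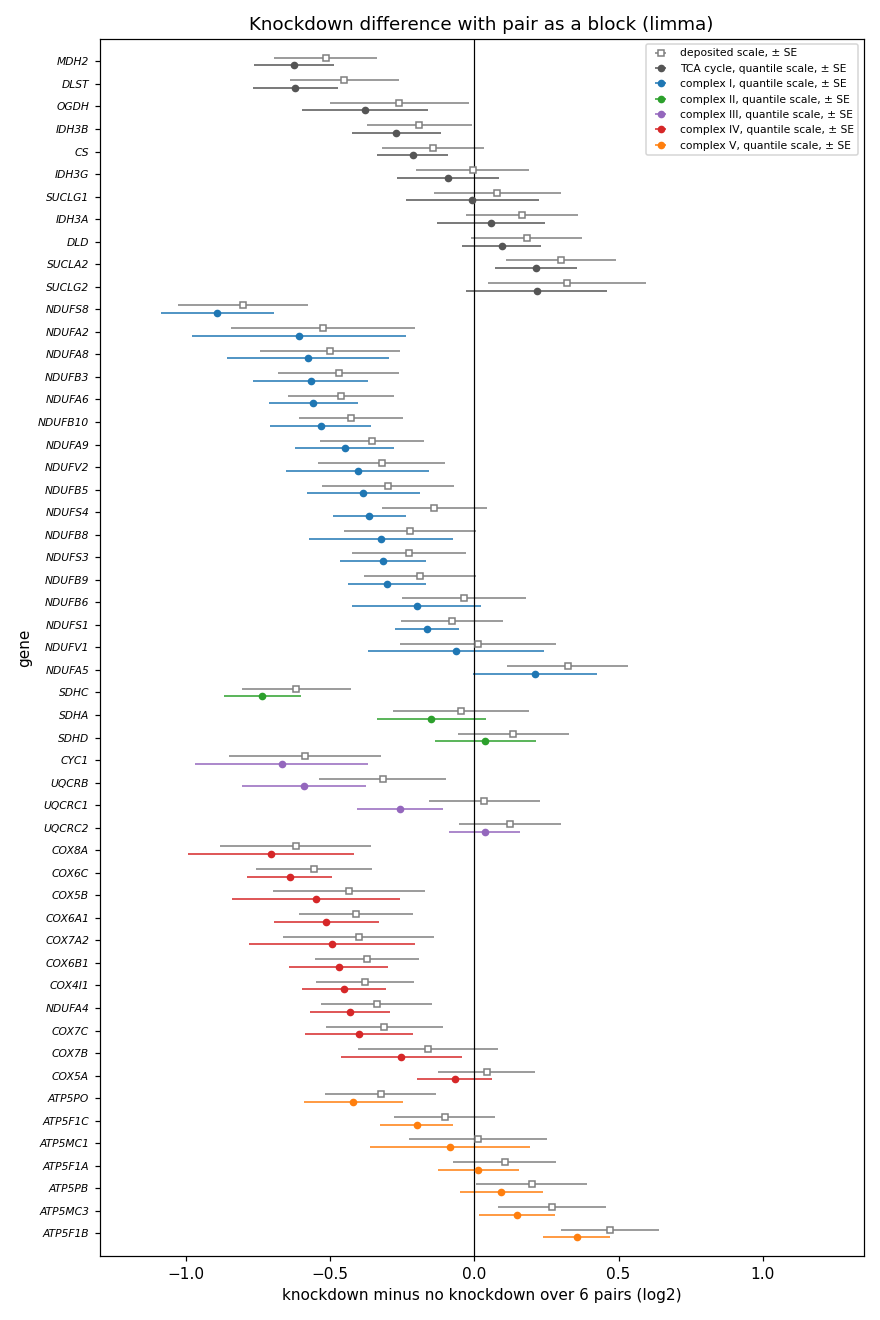
Knockdown minus no knockdown over 6 array pairs in log2 units, from limma with pair as a block, for the 53 genes ordered within each complex. Coloured circles give the quantile scale and grey squares the deposited scale, each with its SE. SDHC at -0.74 is the only gene past an adjusted p of 0.05, on the quantile scale, and ATP5F1B is the highest on both scales.

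In parental cells NDUFS8 read 9.06 untreated, 8.84 and 8.89 in hypoxia and 8.60 and 8.41 with TGFβ, against 8.04 and 7.84 in hypoxia and 8.24 and 8.40 with TGFβ after the knockdown. In Snai1ER cells NDUFS8 read 9.10 untreated and 9.31 and 9.68 with 4-OHT, against 8.54 and 7.84 with 4-OHT and the knockdown. Among deposited values the highest knockdown array, 4-OHT day 2 at 8.54, overlapped the lowest without knockdown, TGFβ day 2 at 8.41. On the quantile scale the 6 knockdown arrays all lay below the 6 treated arrays without knockdown. SDHC and NDUFS8 were the 2 genes of 53 with that separation on the quantile scale, where 1.72% of all genes had it, and SDHC and COX4I1 on the deposited scale, where 0.516% had it. In parental cells ATP5F1B read 11.41 untreated, 11.45 and 11.36 in hypoxia and 11.27 and 11.39 with TGFβ, against 11.90 and 11.60 in hypoxia and 11.84 and 12.11 with TGFβ after the knockdown. In Snai1ER cells ATP5F1B read 11.71 untreated and 11.76 and 11.67 with 4-OHT, against 12.13 and 12.15 with 4-OHT and the knockdown. Its knockdown arrays, the lowest at 11.60, overlapped the 4-OHT arrays without knockdown. In parental cells NDUFA5 read 7.76 untreated, 7.78 and 7.52 in hypoxia and 7.41 and 7.62 with TGFβ, against 8.50 and 8.13 in hypoxia and 8.08 and 7.76 with TGFβ after the knockdown. Its Snai1ER values were 7.34 untreated and 7.33 and 6.9996 with 4-OHT, against 6.65 and 7.49 with 4-OHT and the knockdown. In deposited values its knockdown arrays were higher in every parental pair and went both ways in Snai1ER cells, and on the quantile scale the TGFβ day 2 pair was lower.

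**Figure D5:**
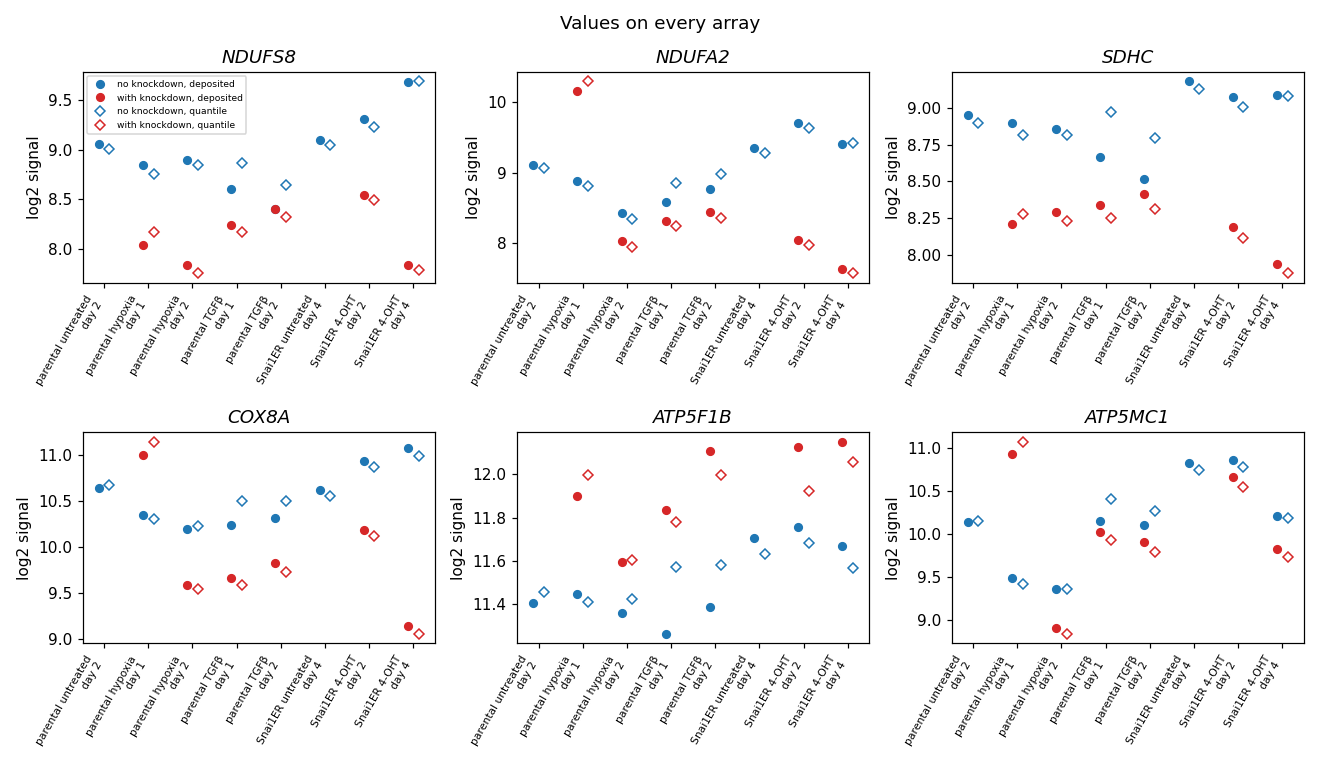
Log2 signal of 6 genes on the 14 arrays, ordered by line, treatment and day. Blue marks arrays without and red arrays with knockdown, filled circles are deposited and open diamonds quantile-normalized values, and each point is 1 array. The red points of SDHC all lie below the blue ones, and those of NDUFA2 and ATP5MC1 are above all others at hypoxia day 1.

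Whether the knockdown difference itself differed between the 2 Snai1ER and the 4 parental pairs was tested with an interaction term. These pairs also differ in treatment, so line and treatment cannot be told apart. None of the 53 genes passed an adjusted p of 0.05 on either scale, with 9 at an unadjusted p under 0.05 on the deposited (8.71% of all genes) and 5 on the quantile scale (10.7%). Over all genes 5 passed on the deposited scale (0.0452%) and 0 on the quantile scale. The smallest adjusted p was 0.279, for NDUFA2, whose mean difference was 0.07 in the 4 parental pairs and -1.72 in the 2 Snai1ER pairs, a difference of -1.80 (SE 0.48). On the quantile scale it was 0.286, for NDUFB5, at -0.99 (SE 0.27). COX7B was 0.22 in parental and -0.92 in Snai1ER pairs (difference -1.14, SE 0.42, adjusted p = 0.476). With array weights 5 of 53 passed on the deposited scale, all lower in the Snai1ER pairs relative to the parental ones, where 11.1% of all genes passed as lower and 0.416% as higher. The share of these genes that passed with array weights was thus below that of all genes.

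In the same fit, 5 genes of the wider lists passed on the quantile scale, all lower in 6 of 6 pairs. They were UQCR10 of complex III at -1.03 (SE 0.15, adjusted p = 0.0381), NDUFS6 of complex I at -0.87 (SE 0.14, adjusted p = 0.0381), the complex I assembly factor NDUFAF2 at -0.68 (SE 0.12, adjusted p = 0.0444), the complex IV assembly factor COX14 at -1.20 (SE 0.20, adjusted p = 0.0409) and the coenzyme Q-binding protein gene COQ10A at -0.90 (SE 0.13, adjusted p = 0.0381). None of these lists had a gene that passed on the deposited scale. The median was -0.90 for the 4 further complex III subunits, -0.50 for the 17 further complex I subunits, -0.46 for the 10 further ATP synthase genes, -0.30 for the 73 mitochondrial ribosomal protein genes and -0.10 for the 17 regulators, against -0.06 over all genes on the quantile scale.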

How the data were processed

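The deposited values are log2 signals per probe set of GeneChip Human Gene 1.0 ST arrays, which the authors computed with RMA in Partek, per the labels. Versions, background options and genome build are not given in the sources used here. Of 33297 probe sets, 19460 had 1 gene symbol, 1754 several and 12083 were not listed. Probe sets of a gene were averaged, and genes with a mean above the 40th percentile of all genes (5.90) were kept. Treated arrays were compared with the untreated array of their line, and knockdown arrays with their treatment and day, by a rule of 1.5-fold at both times, without a test. The knockdown over 6 pairs was fitted in limma 3.58.1 (R 4.3.3) on 12 treated arrays with the pair as a block (5 residual degrees of freedom) and Benjamini-Hochberg adjustment over 11050 genes. P-values measure only the spread between these arrays, and the number of arrays limits the precision. The fit was tested on simulated data. Alternatives were median centring, quantile normalization, other filters, the brightest probe set, array weights and a mean-variance trend. Further ones were treatment in place of the pair as the block, single pairs left out, a 2-fold rule and single times. Combinations of the quantile scale with left-out pairs were chosen after seeing the data. Named genes were all members, with values on every array for those called in a comparison or with the 3 highest or lowest differences, and genes of the wider lists when called. The members and lists were chosen with earlier results of these data known. NDUFA4, now COXFA4, was counted in complex IV, a role set after the design was fixed. Probe sequences were not used here. Pairing of knockdown and control arrays comes from the labelled treatment and day.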

Additional observations from a re-analysis of the deposited data

How the results depend on the processing

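The scale decided most counts, and the cause of the shift between scales was not tested. With array medians centred, 16 of 53 genes passed over the 6 pairs, all lower (10.6% of all genes), and the median of the members was -0.58 instead of -0.22. Quantile normalization gave 1 (lower, as were 0.787% of all genes), and 14 (lower, 3.39%) when the hypoxia day 1 pair was also left out, a setting chosen after seeing the data. Leaving out single pairs gave a count of 0 each time and medians of -0.29 to -0.16. With treatment in place of the pair as the block 0 passed, as in the paired fit. Array weights gave 5 genes for the difference between Snai1ER and parental pairs, all lower (11.1% of all genes), against 0. Each count past the fold rule is followed by the share of all genes in the same direction and setting. The TGFβ comparison had 26 genes with centred medians, all higher (22.5%), 1 higher with quantile normalization (2.47%) and 0 at 2-fold (8.63% lower, 0.118% higher). Knockdown within TGFβ had 35 with centred medians, all lower (23.7%), 10 lower with quantile normalization (4.48%) and 0 at 2-fold (0.109% lower, 6.36% higher). At the earlier time alone it had 10, with 4 lower (2.27%) and 6 higher (39.1%), and at the later 9, with 3 lower (1.57%) and 6 higher (38.6%). Hypoxia had 0 at 2-fold (0.145% lower, 0.787% higher). It had 2 at the earlier time alone, 1 lower (3.03%) and 1 higher (4.52%), and 2 at the later, both lower (4.44%). Its knockdown had 0 at 2-fold (0.968% lower, 0.0724% higher), 22 at the earlier time, with 10 lower (26%) and 12 higher (10.8%), and 10 at the later, with 7 lower (9.23%) and 3 higher (4.08%). For 4-OHT it was 1 lower at the earlier time (1.81%) and 4 at the later, with 2 lower (11.5%) and 2 higher (9.24%). Its knockdown had 2 lower at 2-fold (1.86%), 21 lower at the earlier time (14.2%) and 25 at the later, with 23 lower (18.6%) and 2 higher (15.5%). Directions turned for SUCLG2 over the pairs (-0.031 centred, -0.082 without both TGFβ pairs, -0.019 with quantile normalization and no TGFβ pairs) and for NDUFA5 (-0.028 centred). With centred medians they also turned in the TGFβ comparison for SUCLG2 (0.017), NDUFB10 (0.20) and ATP5PB (0.17), and in its knockdown for ATP5MC3 (-0.19) and ATP5PB (-0.21). Under these alternatives 71 other values of main results and 275 of single genes were counted as kept. Among single genes 6 newly passed (NDUFS8, SDHC, COX8A) and 10 moved in size. For counts, kept meant a count of similar size, whatever its direction. For genes called by the fold rule, kept meant the same sign and a small change in mean, not the same call. COX5B, SUCLG2, ATP5PB and NDUFB10 with TGFβ lost the 1.5-fold call on the quantile scale while their sign held. Signal over background limits what dim genes show, while all 53 genes were above the filter.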
